A study of Mus musculus with 10 samples.

Results

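Trophic factors are secreted proteins that keep neurons alive and shape their connections, and motor neurons of the spinal cord depend on several of them. The neurotrophin *Bdnf* acts through the receptor tyrosine kinase encoded by *Ntrk2*, *Ntrk3* encodes the receptor of neurotrophin 3, and *Ngfr* encodes the p75 receptor, which binds all neurotrophins. *Gdnf* acts through *Ret* together with a GFR-alpha co-receptor, *Igf1* through *Igf1r*, *Vegfa* mainly through the receptors of the vessel wall, and *Cntf* through a complex of *Cntfr*, *Lifr* and *Il6st*.

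The 10 genes described here are these trophic factors and receptors, taken from the table by symbol. All 10 were found among the 25232 genes of the deposited table, and they comprise 5 ligands (*Bdnf*, *Gdnf*, *Igf1*, *Vegfa* and *Cntf*) and 5 receptors (*Ntrk2*, *Ntrk3*, *Ngfr*, *Ret* and *Igf1r*). The table was made from RNA-seq of the spinal cord of 10 female mice of the C57BL/6 strain (C57BL/6J background in the methods) at 90 days of age. Of these, 5 were SOD1 G93A mice, which carry a human *SOD1* transgene with a mutation of familial ALS in high copy number, and 5 were wild type (WT), littermates according to the methods. The methods name the lumbar region, whereas the labels give the spinal cord as a whole, and neither names a treatment. The transgene is driven by its own human promoter and adds a human protein to the mouse's own SOD1 in all tissues, which limits it as a model of the human disease.

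For each gene, the table gives a base mean, which is the authors' mean over all 10 libraries of read counts divided by a size factor for each library. Its other columns hold the authors' own comparison of the genotypes and were not used. The base mean pools SOD1 G93A and WT mice, so the levels below are those of the whole set of animals. Levels in single mice, the spread between mice and the difference between the genotypes were not analysed here. In bulk tissue, a low level from few expressing cells cannot be told apart from a low level in each cell.

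The base mean of a gene with a single read in a single library depends only on that library's size factor. Exactly 10 such values, shared by 716 genes, were found at the bottom of the table, as many as there were libraries. They gave size factors from 0.840 to 1.152, a 1.37-fold range. The base means of all genes summed to 22158933, which by these factors would give totals of about 18600000 to 25500000 counted reads per library if all libraries had the same normalized total. The pooled column does not show whether they had. Which library had which factor is not shown by these values. The same values bound the whole number of reads behind any base mean, and these bounds are given below for the rarest genes. They cover counting error only.

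A base mean above 0 was listed for 20973 genes, with a median of 247.1. The 10 genes fell on both sides of this median, with 5 above and 5 below it. *Ntrk2* (11660), *Ret* (3675), *Vegfa* (2321), *Igf1r* (1874) and *Ntrk3* (1574) lay above the median in base mean. *Igf1* (199.3), *Bdnf* (190.9), *Ngfr* (156.3), *Gdnf* (5.818) and *Cntf* (3.795) lay below it. Thus 4 of the 5 receptors and 1 of the 5 ligands were above the median gene in base mean. Per kilobase, 3 of the 5 receptors and 1 of the 5 ligands were above it, since *Ntrk3* fell below. The highest and the lowest base mean of the 10 differed 3072-fold. *Ntrk2* alone made up 53.8% of their summed base mean and was number 199 of all genes in base mean. Per kilobase of merged exon, described below, the range of the 10 genes was 381.7-fold, *Ntrk2* made up 30.9% of their sum, and it was number 1740 of the 20358 genes with a length.

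**Figure D1:**
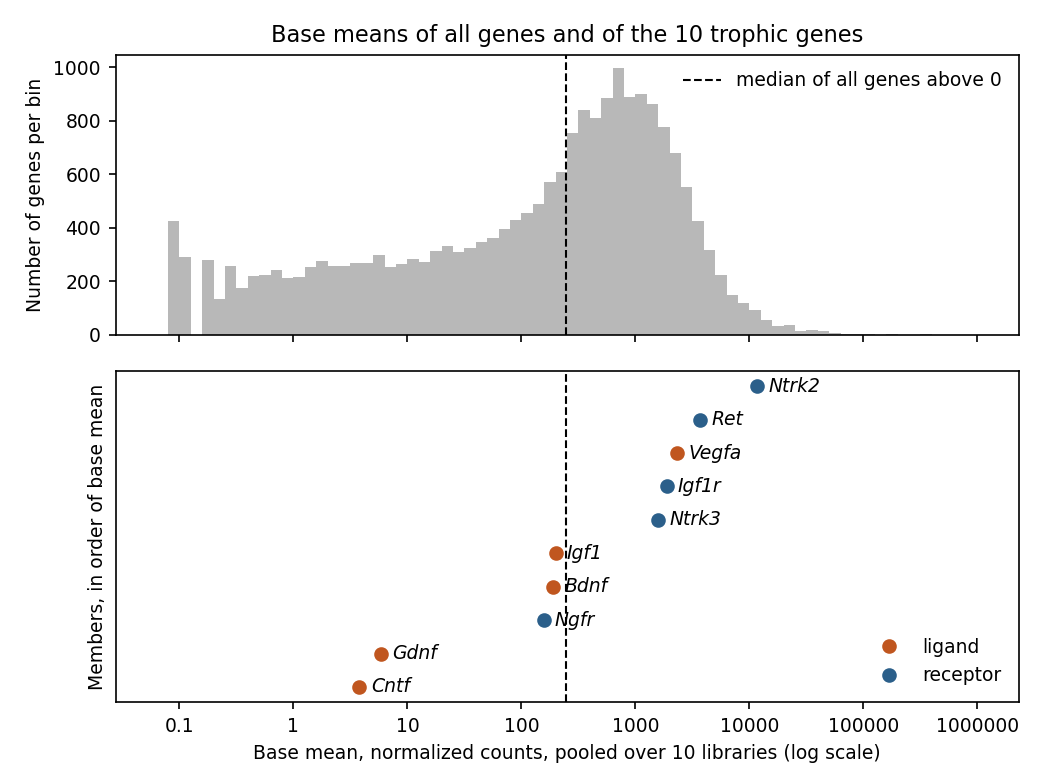
Number of genes by base mean (upper panel) and the base means of the 10 trophic genes (lower panel, in order), on a shared log axis of normalized counts pooled over 10 libraries, with the median gene as a dashed line. *Ntrk2* stands near the upper end of all genes at 11660, 3 genes lie just below the median of 247.1, and *Gdnf* and *Cntf* lie far below it.

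A long transcript yields more fragments than a short one at the same number of molecules, so base means place each gene among all genes but do not give the proportions between genes. The levels below were therefore divided by length. Merged exon lengths were taken from GENCODE M21 on GRCm38, the build that mm10 denotes. On this scale the order was *Ntrk2*, *Ret*, *Vegfa*, *Igf1r*, *Ntrk3*, *Ngfr*, *Bdnf*, *Igf1*, *Cntf* and *Gdnf*, and the median of all genes was 63.47 normalized counts per kilobase. The 5 receptors had a median level of 111.6 counts per kilobase and the 5 ligands one of 20.12. On the coding length the medians were 607.4 for the receptors and 220.1 for the ligands, a smaller gap in proportion, and with the shortest annotated transcript they were 2556 and 51.48, a larger one. The 2556 was the level of *Igf1r*, whose shortest transcript of 733 bases is too short to encode its protein of 1369 residues. The order of neighbours could not be tested, since a pooled mean carries no spread between mice. *Ret* and *Vegfa* were nearest to each other, at 543.4 and 541.5 counts per kilobase, a gap smaller than the counting error of 0.915% on their ratio. On the coding length they stood apart and in the other order, *Vegfa* at 1973 and *Ret* at 1099 counts per kilobase.

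*Ntrk2*, the gene of the BDNF receptor TrkB, lies on chromosome 13 of GRCm38 from 58806569 to 59133970. Its level was 604.4 normalized counts per kilobase of merged exon, at percentile 91.5 of all genes on that scale. This exceeded the level per kilobase of *Ntrk3* 11.6-fold and that of *Ngfr* 13.3-fold. Both ratios depended on the length, at 7.79 to 16.7 for *Ntrk3* and up to 38.8 for *Ngfr* with the longest transcript or the coding length. The shortest annotated transcript gave ratios outside these ranges, with *Ntrk2* at 32752, *Ntrk3* at 7028 and *Ngfr* at 45.37 counts per kilobase. These transcripts have 356 bases in *Ntrk2* and 224 in *Ntrk3*, too few to encode the shortest complete proteins of 466 and 612 residues. The annotation holds 7 complete coding transcripts of *Ntrk2*, of which 2 encode a protein of 821 residues and 5 encode proteins of 466 to 492 residues. The short forms of this receptor lack most of the intracellular part with the kinase, and astrocytes are known to make one of them in quantity. The gene-level count adds all of these forms together, so the base mean of *Ntrk2* does not give the level of the kinase-bearing receptor.

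*Ntrk3*, the gene of the neurotrophin 3 receptor TrkC, lies on chromosome 7 from 78175959 to 78738012. Its base mean of 1574 stood at percentile 83.2 of all genes, whereas its level of 52.18 counts per kilobase stood at percentile 46.7. The merged exons of *Ntrk3* span 30170 bases, the longest among the 10 genes, from 20 annotated transcripts. Complete coding transcripts of *Ntrk3* encode proteins of 612 to 864 residues, so full and truncated receptors are again summed.

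*Ngfr*, on chromosome 11 from 95568818 to 95587735, had a level of 45.37 counts per kilobase, at percentile 44.6. Its p75 product is known in the adult mainly from sensory and cholinergic neurons and from Schwann cells that have lost contact with an axon. *Prx*, a gene of Schwann cell myelin, was measured at 86.79 counts per kilobase in the same tissue. The part of root tissue in the level of *Ngfr* was not tested.

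*Bdnf*, on chromosome 2 from 109674700 to 109727007, had a level of 30.70 counts per kilobase, at percentile 39.4. It was the most abundant of the 4 neurotrophin ligands per kilobase. *Ntf3* and *Ntf5* were far lower, at 2.009 and 1.676 counts per kilobase. The level of *Ntrk2* per kilobase was 19.7 times that of *Bdnf*, 21.5 times on the coding length and 29.8 times with the longest transcript. With the shortest annotated transcript the gap was larger, at 32752 counts per kilobase for *Ntrk2* and 51.48 for *Bdnf*. That transcript of *Ntrk2* is too short to encode any of its complete proteins. The ratio of *Ngfr* to *Bdnf* depended on the length, at 1.48 with merged exons and 0.554 with coding bases. RefSeq lists 7 start sites for *Bdnf*, more than for any other of the 8 members that its start site table holds, and 9 of the 11 coding transcripts in GENCODE encode the same precursor of 249 residues. The gene-level base mean sums over these starts. An annotated antisense gene, *Gm45346*, covers 14.4% of the exon bases of *Bdnf* on the opposite strand, and it has no entry under that symbol in the table. The strand setting of the authors' counting is not given in the sources used here.

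Among the other neurotrophin receptors, the sorting receptor gene *Sort1*, which also binds proneurotrophins, had the highest level at 1382 counts per kilobase. Of the 9 listed genes of neurotrophin receptors and co-receptors, 6 lay at or above the median gene per kilobase, against 0 of the 4 neurotrophin ligands.

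*Ret*, the signalling receptor of the GDNF family, lies on chromosome 6 from 118151745 to 118197718. It had a level of 543.4 counts per kilobase, at percentile 90.3, and its 2 annotated transcripts encode proteins of 1073 and 1115 residues. *Chat*, the acetylcholine-synthesizing enzyme that marks motor neurons and other cholinergic cells, was at 156.3 counts per kilobase, below *Ret*. The other motor neuron genes lay on both sides of *Ret*, with *Isl1* at 11.53, *Mnx1* at 16.59, *Slc5a7* at 410.3, *Slc18a3* at 484.8, *Prph* at 712.3 and *Nefh* at 6192 counts per kilobase. Of the co-receptors that hold the ligand, *Gfra1*, the partner of GDNF, was at 377.1 counts per kilobase, *Gfra4* at 201.8 and *Gfra2* at 165.6. *Gfra3* was far lower at 4.069, and *Gfral* had the lowest level of the receptor list at 0.2331, from 5 reads in all 10 libraries.

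*Gdnf* itself, on chromosome 15 from 7810846 to 7837575, had the lowest level per kilobase of the 10 genes, 1.583, at percentile 16.0. Its base mean of 5.818 corresponds to between 49 and 66 reads in all 10 libraries together, a counting error of up to 14.3%. With the coding length in place of merged exons, *Gdnf* stood above *Cntf*, which was then the lowest. *Ret* exceeded *Gdnf* 343-fold (136-fold on the coding length) and *Gfra1* exceeded it 238-fold per kilobase. The other ligands of the family were also rare, with *Pspn* highest on merged exons at 24.78 counts per kilobase and *Nrtn* at 21.92. On the coding length *Nrtn* stood above *Pspn*, at 4.74 and 3.11 times *Gdnf*. None of the 5 ligands in the list reached the median gene, which 6 of the 8 receptor genes did. *Sdc3*, a syndecan that binds GDNF, led the receptor list at 1802 counts per kilobase.

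*Igf1r*, the receptor of insulin-like growth factors, lies on chromosome 7 from 67952827 to 68233668 and had a level of 111.6 counts per kilobase, at percentile 60.8. The related receptor genes were near it, with the insulin receptor gene *Insr* at 125.6 and the scavenging receptor gene *Igf2r* at 143.3. *Igf1*, on chromosome 10 from 87858265 to 87937042, was at 20.12 counts per kilobase, at percentile 34.7. The level of *Igf1r* per kilobase was 5.55 times that of *Igf1*, but 1.13 times when only coding bases were used as the length. *Igf2*, a growth factor gene known from the meninges and the choroid plexus, was at 235.8 counts per kilobase, 11.7 times *Igf1*, or 5.85 times on the coding length. Meningeal fibroblast genes were measured in the same tissue, with *Igfbp6* the highest of 5 at 151.7 and *Lum* the lowest at 27.49 counts per kilobase, and their part in the level of *Igf2* was not tested. The 7 complete coding transcripts of *Igf1* encode precursors of 137 to 165 residues.

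*Vegfa*, on chromosome 17 from 46016993 to 46032369, was the only member ligand above the median gene, at 541.5 counts per kilobase and percentile 90.2. Its product drives vessel growth and also acts on neurons. In the VEGF family the level of *Vegfb* was higher still at 953.5 counts per kilobase, and that of *Vegfd* was the lowest at 7.774. The vascular receptor genes were less abundant than their ligand. *Flt1* was at 166.8 counts per kilobase, 0.308 times *Vegfa*, and *Kdr*, which encodes the main signalling receptor, was at 52.22, 0.0964 times *Vegfa*. With the longest transcript and the coding length, these ratios were 0.486 and 0.286 for *Flt1* and 0.118 and 0.0592 for *Kdr*, all below 1. The lymphatic receptor gene *Flt4* was the lowest receptor of the family at 21.73. By contrast, *Ret* exceeded *Gdnf*, *Ntrk2* exceeded *Bdnf* and *Igf1r* exceeded *Igf1* on merged exons, although *Igf1r* exceeded *Igf1* by no more than 1.13 times on the coding length. This comparison sets levels of pooled RNA side by side and has no test.

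*Cntf*, on chromosome 19 from 12763660 to 12765632, encodes a cytokine of 198 residues that is known from Schwann cells and astrocytes. Its base mean of 3.795 was the lowest of the 10 and corresponds to between 32 and 43 reads in all 10 libraries, a counting error of up to 17.7%. Per kilobase its level was 3.537, at percentile 20.9. The receptor genes were abundant, with *Cntfr* at 943.2, *Il6st* at 364.9 and *Lifr* at 206.2 counts per kilobase. On merged exons, *Cntfr* exceeded *Cntf* 267-fold. Other ligands that share these receptor chains were rare too. On merged exons, *Clcf1* had the highest level among the 8 ligands at 16.56, and *Il6* had the lowest at 0.7069 counts per kilobase, from 15 to 19 reads.

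The value of *Cntf* is limited by an overlap on its own strand. The exons of *Zfp91*, the neighbouring gene on the same strand, cover 847 of the 1073 exon bases of *Cntf* in the annotation, or 78.9%. For the other 9 genes, 0% of the exon bases were shared with another gene on the same strand. The sources used here do not give the annotation the authors counted on, or how a read that lies on 2 genes was assigned. *Zfp91* had a base mean of 2744. If reads on shared bases were left out of the count, only the 226 unshared bases of *Cntf* could yield reads, and its level over these bases was 16.79 counts per kilobase in place of 3.537. *Cntf* would then stand beside *Clcf1* among the ligands, and *Cntfr* would exceed it 56.2-fold. Of the ligands, *Gdnf* has no such overlap, and its low level does not depend on this choice.

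**Figure D2:**
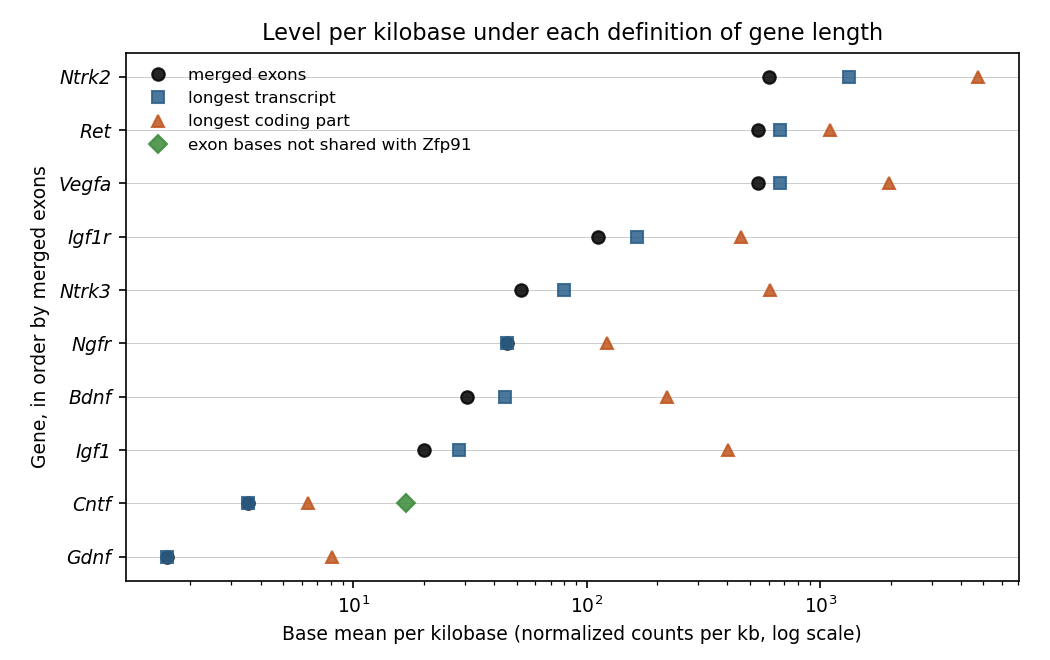
Level of each of the 10 genes in normalized counts per kilobase (log axis) with the length taken from merged exons, the longest transcript or the longest coding part, and for *Cntf* also from the exon bases not shared with *Zfp91*. The upper 5 genes and the lower 5 stay the same under the first 3 lengths, while *Cntf* moves from 3.537 to 16.79 on the unshared bases.

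The ligand and receptor lists of the 5 families were then pooled. Of the 24 ligand genes with a level per kilobase, 4 (16.7%) lay above the median gene, and their median was 9.469 counts per kilobase. Of the 31 receptor and co-receptor genes, 22 (71.0%) lay above the median gene, and their median was 143.3. By definition, 50% of all genes lie above the median. The 4 ligands above it were *Vegfa*, *Vegfb*, *Pgf* and *Igf2*. The families differed among themselves. Per kilobase, 0 ligands of the neurotrophin, GDNF and CNTF families reached the median gene, whereas 3 of 5 VEGF ligands and 3 of 5 VEGF receptors did. In the IGF family, the median level of 2 ligands was 127.9 and that of 3 receptors 125.6 counts per kilobase. These lists include the 10 genes and were not tested.

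**Figure D3:**
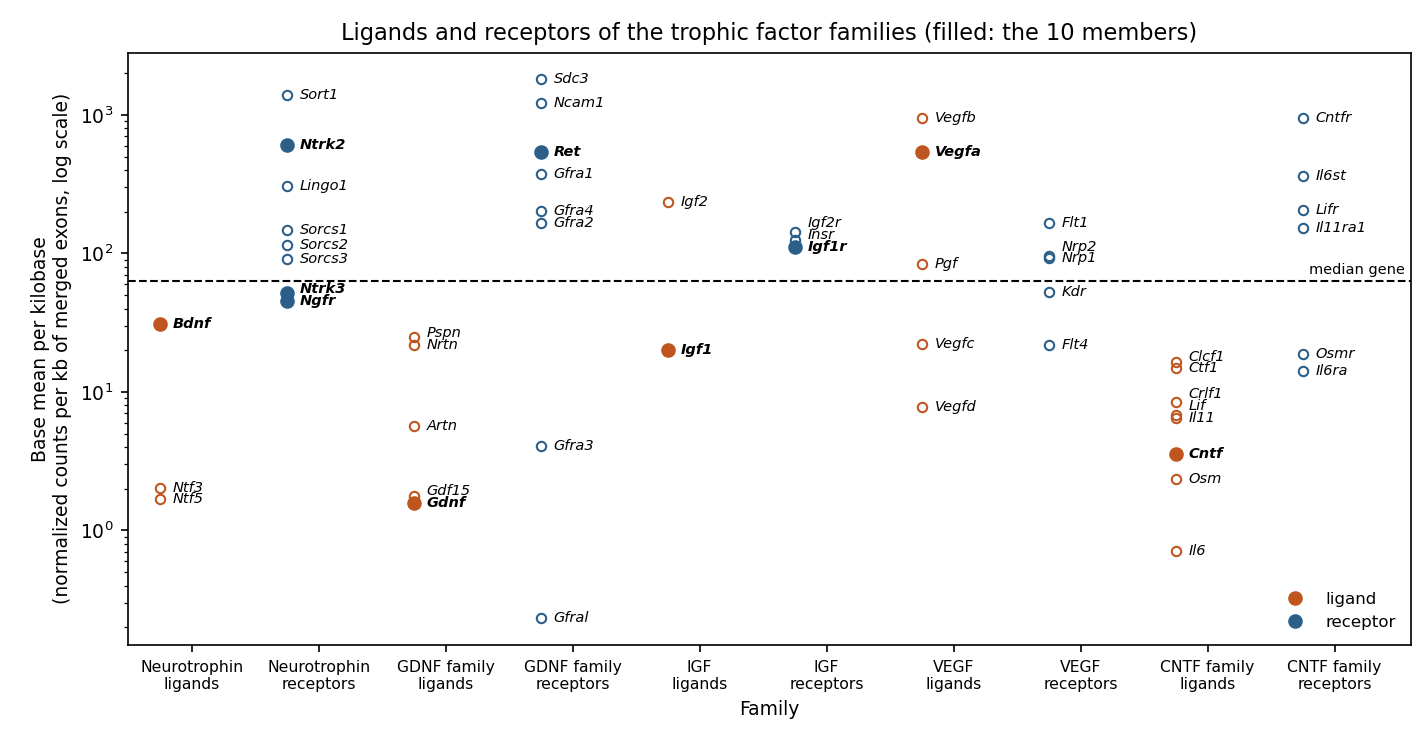
Levels of ligands (orange) and receptors (blue) of 5 trophic factor families in normalized counts per kilobase of merged exon (log axis), with the 10 genes filled and the median gene as a dashed line at 63.47. Ligands of the neurotrophin, GDNF and CNTF families all lie below the line, and most receptors lie above it.

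The tissue and sex given in the labels were checked against marker genes. All 7 motor neuron genes were measured, and 5 of them reached the median gene per kilobase. The neurofilament gene *Nefh*, which other large neurons express as well, was highest at 6192 counts per kilobase, and the transcription factor genes *Isl1* and *Mnx1* were lowest at 11.53 and 16.59. Oligodendrocyte genes were the most abundant, led by *Mbp* at 37739, followed by *Gfap* among the astrocyte genes at 13345 and *Snap25* among the neuronal genes at 8695 counts per kilobase. All 6 microglial genes lay at or above the median gene per kilobase. Of the 5 precursor genes, 4 reached the median gene. *Olig1* was the highest of them at 2635, *Pdgfra* was at 133.4 and *Cspg4* was the lowest at 63.28 counts per kilobase. Vascular genes were led by *Rgs5* at 627.2 and ependymal genes by *Foxj1* at 318.7 counts per kilobase. Of the 4 ependymal genes, 2 reached the median gene, and *Tmem212* was the lowest at 36.66 counts per kilobase. Of the 5 genes of sensory ganglia, 0 reached the median gene. Skeletal muscle genes were present, and 2 of the 5 reached the median gene. *Acta1* was the highest of them at 163.5 and *Myl1* the lowest at 29 counts per kilobase. The source of these muscle genes was not tested. *Alas2*, an enzyme of red cell precursors, was at 57.15, while the 4 haemoglobin genes of the blood list were listed at 0. Whether these zeros came from absent RNA or from counting only uniquely mapped reads was not tested. *Xist*, which is transcribed from the inactive X chromosome, had a base mean of 10908. The Y-linked genes *Ddx3y*, *Uty* and *Kdm5d* were listed at 0, with no read in any library, which limits the expected number to about 3 reads in all or a base mean of 0.357, and *Eif2s3y* rested on 2 reads, in a series labelled as female.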

How the data were processed

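Spinal cord RNA of 10 females (5 SOD1 G93A, 5 WT) was sequenced. According to the methods and the submitters' processing notes, the authors filtered reads with Fastp, aligned them to mm10 with HISAT2 2.1.0, counted uniquely mapped reads with featureCounts 2.0.2 and compared the groups with DESeq2. The annotation, strand setting and treatment of reads on several genes are not given in the sources used here. The deposited base mean, a signal made by the authors as the mean of counts over size factors, was the only column used. The 5 columns of the authors' comparison (fold change, its error, statistic and both p-values) were left out, so no genotype test was made.

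Size factors were read from base means shared by at least 10 genes that are not a sum of smaller ones, a step tested on simulated data. Levels were divided by merged exon lengths of GENCODE M21, matched by symbol for 20358 genes (97.1%), in place of the RefSeq lengths planned. All 10 members were named, with the highest and lowest gene of each list, and some genes that this rule covers are not reported here or drawn. Members and lists were chosen with earlier results of these data known. Alternatives were other backgrounds, gene lengths, symbol matching through synonyms, and thresholds. The length of *Cntf* without shared bases was added after the data were seen. Python 3.11.15, pandas 2.3.3 and scipy 1.17.1 were used.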

Additional observations from a re-analysis of the deposited data

How the results depend on the processing

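The pooled column allowed no leave-one-out value. No paired analysis was possible because the base mean carries no values of single libraries or replicate numbers. In base mean, the median of the 10 members stood at percentile 72.7 of genes above 0 and at 77.3 of all listed genes. It stood at 69.1 where the minimum base mean was 1 and at 64.1 where it was 10. The number of members above the median gene in base mean was 5, and 8 against all listed genes, of which 4259 are at 0. Per kilobase, the middle members *Ntrk3* (52.18) and *Ngfr* (45.37) lay below the median gene of 63.47. With the longest transcript as the length, all 10 members kept their place in the order. With no length, 6 did, and with the coding length, 2 did, when *Vegfa* stood above *Ret*, *Ntrk3* above *Igf1r*, *Igf1* above *Bdnf* and *Ngfr*, and *Gdnf* above *Cntf*. With the shortest annotated transcript, *Ret* at 817.2 counts per kilobase stood below *Ntrk3* (7028), *Vegfa* (5012) and *Igf1r* (2556). The shortest transcripts of *Ntrk3* and *Igf1r* are too short to encode any of their complete proteins. Of the 88 family symbols, 85 were measured, 86 with synonyms and 82 at a base mean of at least 1. Reading size factors from values shared by at least 5 genes gave 16 values in place of 10, and the 6 added ones were sums of 3 single reads. Of the single members' values, 29 of 30 alternative percentiles moved beyond a binomial interval on the share of genes below the member. That interval does not measure the counting error of reads. For levels per kilobase, 25 of 31 alternatives were labelled as moved beyond counting error. Among these, the level of *Cntf* on unshared bases was labelled as moved without this check. Depth limits *Gdnf* and *Cntf* most.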

Other observations

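The IGF binding proteins, which hold IGFs in the fluid around cells, were mostly well expressed, and 6 of the 8 lay at or above the median gene per kilobase. *Igfbp7* had the highest level of the list at 459.3 counts per kilobase, *Igfbp5* was at 402.6 and *Igfbp2* at 344.3, all above *Igf1* at 20.12. *Igfbp1*, which is known from liver, had the lowest level at 0.1832 counts per kilobase, from 3 reads in all libraries.

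Adaptors and signalling proteins downstream of the trophic receptors were abundant, with 13 of 15 at or above the median gene. *Kidins220*, a membrane scaffold that is a substrate of Trk receptors, led at 1083 counts per kilobase, and *Irs4* was the lowest at 15.54. Among 8 genes of enzymes that can cleave neurotrophin precursors, 4 reached the median gene. *Pcsk6* led at 257.1 counts per kilobase, *Mmp3* rested on a single read at 0.05095, and *Mmp7* was listed at 0.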
